A study of Mus musculus with 7 samples.

Results

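The 10 genes described here belong to the fibroblast growth factor (Fgf) pathway of the mouse. They are the ligands Fgf2, Fgf4 and Fgf5, the receptors Fgfr1 and Fgfr3, and the Erk-responsive genes Spry2, Spry4, Etv4, Etv5 and Dusp6. All were taken by name from 29686 measured genes, and all 10 were measured. The level of a gene is the mean of its exon values in RPKM (reads relative to exon length and to sequencing depth), weighted by exon length. At least 2 RPKM in some library was reached by 9 of the 10, and Fgf5 stayed under it everywhere.

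Fgf ligands are secreted proteins that bind, together with heparan sulphate, to Fgf receptors, which are tyrosine kinases of the cell surface. An activated receptor recruits adaptors such as Frs2 and Grb2, which pass the signal through Ras, Raf and Mek to the Erk kinases. Erk activity raises transcription of the ETS factors Etv4 and Etv5 and of inhibitors that damp the same route, the Sprouty proteins Spry2 and Spry4 and the phosphatase Dusp6, which removes the activating phosphates from Erk. Embryonic stem cells make Fgf4 themselves and use the Erk signal when they leave the naive state, and neural stem cells are commonly grown in added Fgf2 protein.

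RNA was sequenced from 7 mouse populations. They include fibroblasts, cells on day 6 of conversion to neural stem cells (NSC) with Oct4, Sox2, Klf4 and Myc (OSKM), and converted NSC. Both OSKM NSC populations and the day 6 population were B6/129 and carried Rosa26-TdTomato, from a B6 female, and Col1a-OSKM, from a 129 male. The OSKM NSC populations are labelled by the presence or absence of a Nanog-Tomato mark. The Nanog-CreER reporter in the day 6 fibroblasts marks with tdTomato cells that had used Nanog while 4OHT was present, and doxycycline switches on OSKM. Tomato-positive and Tomato-negative OSKM NSC were subcloned by mechanical picking and kept without feeders, and the labels do not give the number of subclones. Brain NSC came from BDF2 embryos, whose embryonic age differs by 1 day between labels, and were cultured in medium with 20 ng/mL bFGF (Fgf2 protein), 20 ng/mL EGF, B27 and N2. Day 6 cells were sorted as tdTomato positive at the end of 6 days of doxycycline and 4OHT, in medium with 10% serum replacement and 5% serum and without feeders. Induced pluripotent stem cells (iPSC) and mouse embryonic fibroblasts (MEF) both had strain A12 (Mbd3 flox/-), and embryonic stem cells (ESC) were the v6.5 line, grown on fibroblast feeders. For the iPSC the labels put question marks after their note on feeders. The medium of the OSKM NSC, iPSC, ESC and MEF is not given in the labels, so the dose of Fgf protein these cells received is known only for brain NSC.

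Each population had 1 library, so no value has a replicate error, no difference has a test, and strain and culture cannot be told apart from cell type. Depth, inferred from the steps of the values, lay between 19 M reads in Tomato-positive OSKM NSC and 58 M reads in iPSC. Of 8 neural stem cell markers, 8 reached 2 RPKM in all 3 NSC libraries, 5 on day 6, 4 in MEF, 3 in ESC and 2 in iPSC. Of 7 pluripotency markers, 7 did so on day 6, in iPSC and in ESC. In Tomato-positive OSKM NSC 2 did, in Tomato-negative OSKM NSC 1, and in brain NSC and MEF 0. Other lists did not simply follow the labels either. All 4 neuron markers also reached 2 RPKM in the 3 NSC libraries. They summed to 789, 747 and 443 RPKM in Tomato-positive, Tomato-negative and brain NSC, and to 90.3 RPKM or less elsewhere. All 10 fibroblast markers were above 2 RPKM in MEF, ESC and Tomato-positive OSKM NSC, and their summed level was 1972 RPKM in Tomato-positive OSKM NSC, 151 in Tomato-negative OSKM NSC and 6.95 in brain NSC, then 129.9 on day 6, 113 in iPSC, 4004 in ESC and 37697 in MEF. The 4 epithelial markers summed to 1460 RPKM on day 6, and the 4 myeloid markers to 3016 RPKM in MEF and 101 in ESC. In ESC, Lyz2 alone made up 93.5 RPKM of the myeloid sum. The 4 endothelial markers summed to 36.3 RPKM on day 6, 106 in iPSC and 153 in ESC, and to 8.80 or less elsewhere. These sums were mostly 1 gene each, Tek at 35.9 RPKM on day 6 and Pecam1 at 93.5 in iPSC and 138 in ESC. Cdh5 and Kdr were at or under 0.634 RPKM in these libraries, so the list as a whole was not high in them. In such bulk libraries fewer cells of a type and less RNA per cell cannot be told apart.

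One short sequence of Fgf4 and one of Dusp6 are shown because these genes mark the 2 ends of the results, the pluripotent libraries and the NSC libraries. The last exon of Fgf4 holds, in its untranslated part, the enhancer at which Sox2 and Oct4 are known to bind side by side. The stretch below lies at chr7:144864388-144864417 on the plus strand (GRCm38, GENCODE M21 transcript), its Sox box begins 1629 bases past the start of that exon, and capitals mark the Sox box and the Oct box.
Fgf4 last exon: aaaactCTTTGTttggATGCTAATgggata
The search motif was CTTTGT, any 4 bases and then ATGNTAAT, on both strands of annotated protein-coding transcripts. It occurred in 2 of 21901 genes, or 0.00913%, Fgf4 and Vmn2r65. The motif has the boxes and spacing of the Fgf4 site shown above, so the match in Fgf4 was no independent find. The second sequence is the 250 bases before the RefSeq start of Dusp6, at chr10:99262981-99263230 on the plus strand (GRCm38.p6), in which capitals mark ETS cores.
Dusp6 upstream: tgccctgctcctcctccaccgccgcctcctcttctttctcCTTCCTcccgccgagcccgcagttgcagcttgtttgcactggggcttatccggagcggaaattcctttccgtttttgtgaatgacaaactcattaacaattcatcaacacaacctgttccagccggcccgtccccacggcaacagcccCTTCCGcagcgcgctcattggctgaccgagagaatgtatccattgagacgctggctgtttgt
The cores searched were CGGAAG and AGGAAG on both strands, and no match of one overlapped a match of the other here. Dusp6 had 1 match of each, both on the minus strand, the nearer of them 56 bases before the start. At least 1 match was found in 39.2% of 32851 upstream windows of this length. Of the members, 7 of 10 were in the RefSeq table, with 9 windows in all, and the window of Dusp6 was the only 1 with a match. A match describes these letters and is no evidence of binding.

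Gene positions below are in mm10 (GRCm38). The ligands were low in nearly all libraries, with Fgf4 on day 6, in iPSC and in ESC as the exception. Fgf4 (ENSMUSG00000050917, chr7:144861386-144865243, plus strand), the ligand that pluripotent cells make for themselves, stood at 0.0695 RPKM in Tomato-positive OSKM NSC, 0.0314 in Tomato-negative OSKM NSC and 0.0367 in brain NSC, and at 36.5 on day 6, 94.3 in iPSC, 205 in ESC and 0.0587 in MEF. These levels rest on 4, 4 and 3 reads in the 3 NSC libraries in that order, on 5086 reads on day 6, 16576 in iPSC and 25490 in ESC, and on 8 reads in MEF. The pluripotent and day 6 libraries therefore lay far above the other 4, with no level in between. Day 6 exceeded MEF 622-fold (95% interval 315 to 1441, counting error only) and reached 0.387 of the iPSC level (0.375 to 0.399) and 0.178 of the ESC level (0.173 to 0.183). These shares moved with the exons used: over the first 2 exons day 6 was at 0.225 of iPSC and 0.326 of ESC. Fgf4 could pass the floor of 2 RPKM only through these 3 libraries, so its difference from MEF and NSC is a description of where it was on.

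Pou5f1 (Oct4) and Sox2 were set beside Fgf4 as a description, chosen after their values were seen. Pou5f1 stood at 3.13, 1.32 and 1.55 RPKM in Tomato-positive, Tomato-negative and brain NSC, 886 on day 6, 2067 in iPSC, 1410 in ESC and 1.09 in MEF. Sox2 stood at 116, 120 and 201 RPKM in the same NSC libraries, 65.4 on day 6, 252 in iPSC, 183 in ESC and 2.92 in MEF. Pou5f1 and Fgf4 were both high on day 6, in iPSC and in ESC, and Sox2 was high in these and in the 3 NSC libraries. Their part in the Fgf4 level was not tested. The OSKM transgene and the endogenous genes are not separated in these levels.

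**Figure D1:**
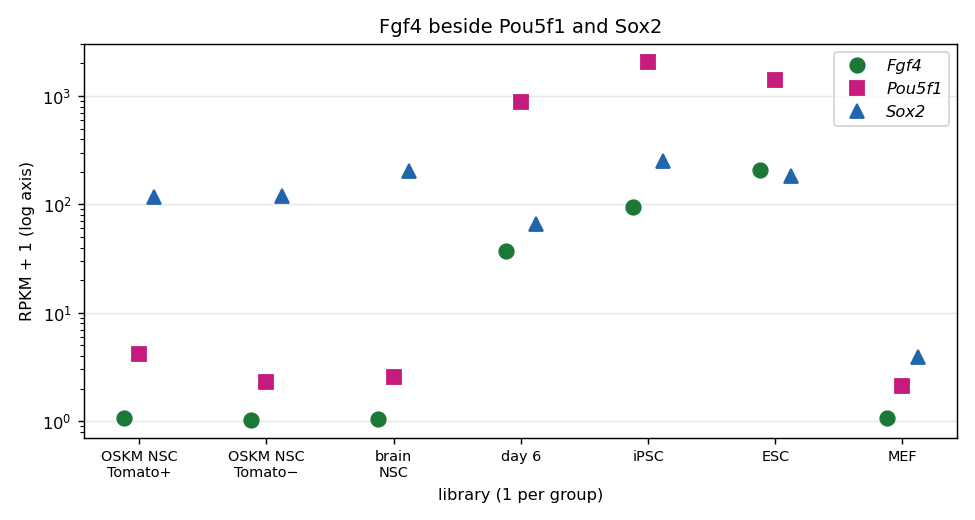
RPKM + 1 on a log axis for Fgf4, Pou5f1 and Sox2 in each of the 7 libraries, 1 point per library and no error. Fgf4 is at 36.5 RPKM or more on day 6, in iPSC and in ESC, where Pou5f1 is at 886 RPKM or more, and near 0 in the NSC libraries, where Sox2 is at 116 RPKM or more.

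Fgf2 (ENSMUSG00000037225, chr3:37348346-37405377, plus strand), the ligand supplied as bFGF in the brain NSC medium, stood at 2.53 RPKM in Tomato-positive OSKM NSC, 1.76 in Tomato-negative OSKM NSC and 2.35 in brain NSC, and at 1.07 on day 6, 0.646 in iPSC, 0.653 in ESC and 6.62 in MEF. MEF had the highest level, and the counting intervals of the ratios between neighbouring NSC libraries included 1, as did that between ESC and iPSC. Most of these reads lay where Fgf2 overlaps Nudt6, a gene on the other strand, and the library kit did not keep strand. On day 6 all 114 Fgf2 reads lay in exons shared with another gene, and the unshared 1028 bases had 0 reads, which allows up to 0.0634 RPKM. In MEF 375 of 513 reads were in shared exons and 138 in unshared ones, whereas the unshared exons held 6, 12 and 13 reads in Tomato-positive, Tomato-negative and brain NSC, 4 in iPSC and 3 in ESC. Unshared coding exons averaged 0.290, 0.175 and 0.407 RPKM in those NSC libraries, 0 on day 6, 0.0738 in iPSC, 0.0447 in ESC and 2.65 in MEF. MEF was therefore also highest in the exons that Fgf2 alone covers. Nudt6 itself stood at 6.89, 6.39 and 6.24 RPKM in the NSC libraries, 3.67 on day 6, 2.56 in iPSC, 2.16 in ESC and 10.4 in MEF, and its part in the Fgf2 level was not tested.

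Fgf5 (ENSMUSG00000029337, chr5:98254184-98277030, plus strand), a ligand known from the postimplantation epiblast, stood at 0.231 RPKM in Tomato-positive OSKM NSC, 0.162 in Tomato-negative OSKM NSC and 0.370 in brain NSC, and at 0 on day 6, 0.269 in iPSC, 0.0585 in ESC and 1.05 in MEF. Day 6 had 0 reads over 2501 bases, which allows up to 0.0261 RPKM, and MEF had 118 reads, the most of any library. In both OSKM NSC libraries all Fgf5 reads, 11 and 17, fell in the last exon. Being under 2 RPKM in every library, the gene entered no comparison.

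Fgfr1 (ENSMUSG00000031565, chr8:25513654-25575714, plus strand), a widely expressed receptor, was the most even of the 9 members that reached 2 RPKM. It stood at 131 RPKM in Tomato-positive OSKM NSC, 137 in Tomato-negative OSKM NSC and 126 in brain NSC, and at 65.6 on day 6, 47.2 in iPSC, 63.0 in ESC and 114 in MEF. The 3 NSC libraries and MEF were above the day 6, iPSC and ESC libraries, and no comparison reached 2-fold. Its ratio lay close to that line in brain NSC against iPSC and ESC, where the smaller log2 ratio was 0.99, and in OSKM NSC against day 6, also 0.99. Scaling the libraries by their median ratio moved brain NSC against iPSC and ESC to 1.11, and scaling to equal totals moved it to 1.58.

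Fgfr3 (ENSMUSG00000054252, chr5:33721724-33737068, plus strand), a receptor known from the ventricular zone of the developing brain, separated the libraries most among the receptors. It stood at 54.6 RPKM in Tomato-positive OSKM NSC, 49.6 in Tomato-negative OSKM NSC and 230.2 in brain NSC, and at 0.474 on day 6, 0.326 in iPSC, 0.336 in ESC and 4.68 in MEF. All 3 NSC libraries were above every other library, and brain NSC was above both OSKM NSC. Against day 6 the ratio was 115 in Tomato-positive OSKM NSC (95.9 to 140.4) and 105 in Tomato-negative OSKM NSC (86.2 to 126). The OSKM NSC lines had 0.237 (0.234 to 0.248) and 0.215 (0.211 to 0.221) of the brain NSC level, a log2 ratio of -2.06 for the nearer one. The lower side of these comparisons rests on 113 reads on day 6, 88 in iPSC and 60 in ESC. Of the 4 astrocyte markers, Slc1a3, which radial glia also express, stood at 232, 650.4 and 1936 RPKM in Tomato-positive, Tomato-negative and brain NSC, and S100b at 3.55, 12.8 and 35.8 RPKM. Gfap, at 1.21, 6.45 and 3.26 RPKM, and Aqp4, at 0.768, 6.71 and 1.802 RPKM, were highest in Tomato-negative OSKM NSC. The part of these markers in the Fgfr3 level was not tested.

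Exons IIIb and IIIc of the receptor genes encode alternative ends of the third immunoglobulin domain, which set which ligands bind. In Fgfr1 the IIIc exon held 71.0%, 68.3% and 68.7% of the summed IIIb and IIIc RPKM in Tomato-positive, Tomato-negative and brain NSC, 74.2% on day 6, 72.4% in iPSC, 71.0% in ESC and 69.6% in MEF. In Fgfr3 the IIIc share was 63.8%, 64.4% and 71.3% in the same NSC libraries. These shares do not give isoform use, because exon values in this file may count reads spliced across an exon. The mutually exclusive M1 and M2 exons of Pkm, a gene chosen for this check, had a ratio of M1 to M2 between 0.539 on day 6 and 1.17 in ESC, so both were high in every library.

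Among the Erk-responsive genes, the 3 NSC libraries held the highest Spry2, Etv4 and Dusp6 levels of the 7. Spry2 (ENSMUSG00000022114, chr14:105891947-105896819, minus strand), a feedback inhibitor of receptor tyrosine kinases, stood at 148 RPKM in Tomato-positive OSKM NSC, 212 in Tomato-negative OSKM NSC and 322 in brain NSC, and at 17.8 on day 6, 44.3 in iPSC, 55.0 in ESC and 31.1 in MEF. All 3 NSC libraries were above the rest, and day 6 was lowest. Its last exon alone stood at 14.5 RPKM on day 6 and its first exon at 44.7, against 29.6 and 43.7 RPKM in MEF.

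Spry4 (ENSMUSG00000024427, chr18:38586247-38601415, minus strand), the other Sprouty gene here, stood at 47.7 RPKM in Tomato-positive OSKM NSC, 92.7 in Tomato-negative OSKM NSC and 57.0 in brain NSC, and at 56.1 on day 6, 7.91 in iPSC, 1.93 in ESC and 12.6 in MEF. Day 6 thus stood among the NSC libraries in Spry4, at 7.09 times the iPSC level and 29.0 times the ESC level. In Spry2 the same day 6 library was at 0.403 of iPSC and 0.325 of ESC. The 2 Sprouty genes therefore parted on day 6. The 2-fold difference of Spry2 from iPSC and ESC was lost without the last exon, where the smaller log2 ratio was -0.73 in place of -1.27.

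Etv4 (ENSMUSG00000017724, chr11:101769742-101785371, minus strand), an ETS factor of the PEA3 group, stood at 114 RPKM in Tomato-positive OSKM NSC, 157 in Tomato-negative OSKM NSC and 291 in brain NSC, and at 86.5 on day 6, 58.3 in iPSC, 23.1 in ESC and 20.96 in MEF. Etv5 (ENSMUSG00000013089, chr16:22381309-22439719, minus strand), of the same group and known from stem cell renewal, stood at 151, 248 and 271 RPKM in the same NSC libraries, 139.5 on day 6, 170.1 in iPSC, 94.9 in ESC and 26.6 in MEF. MEF was lowest in both genes. In Etv4 all 3 NSC libraries were highest, whereas in Etv5 iPSC lay between the 2 OSKM NSC libraries.

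The phosphatase gene Dusp6 (ENSMUSG00000019960, chr10:99263231-99267488, plus strand) stood at 200.4 RPKM in Tomato-positive OSKM NSC, 259 in Tomato-negative OSKM NSC and 160.0 in brain NSC, and at 34.6 on day 6, 23.1 in iPSC, 6.28 in ESC and 40.3 in MEF. The NSC libraries were above all others, with both OSKM NSC above brain NSC, and ESC was lowest. Against MEF the ratio was 4.97 in Tomato-positive OSKM NSC (4.81 to 5.14), 6.43 in Tomato-negative OSKM NSC (6.24 to 6.63) and 3.97 in brain NSC (3.84 to 4.10). Unlike Spry4, Etv4 and Etv5, it was not higher on day 6 than in MEF, with a log2 ratio of -0.22.

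**Figure D2:**
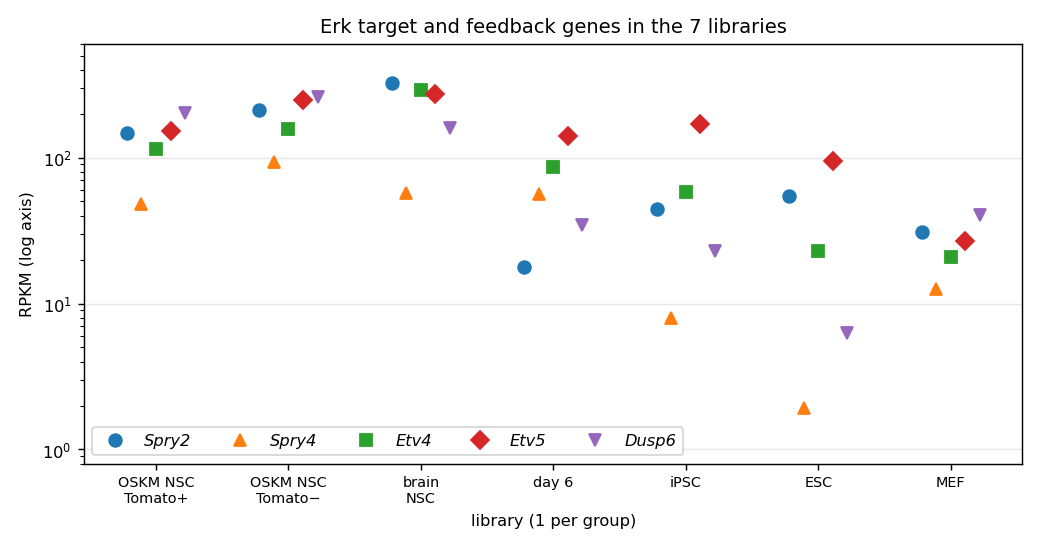
RPKM on a log axis for the 5 Erk-responsive genes in each of the 7 libraries, 1 point per library and no error. Spry2, Etv4 and Dusp6 are highest in the 3 NSC libraries, and on day 6 the points spread between Spry2 at 17.8 RPKM and Etv5 at 139.5 RPKM.

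**Figure D3:**
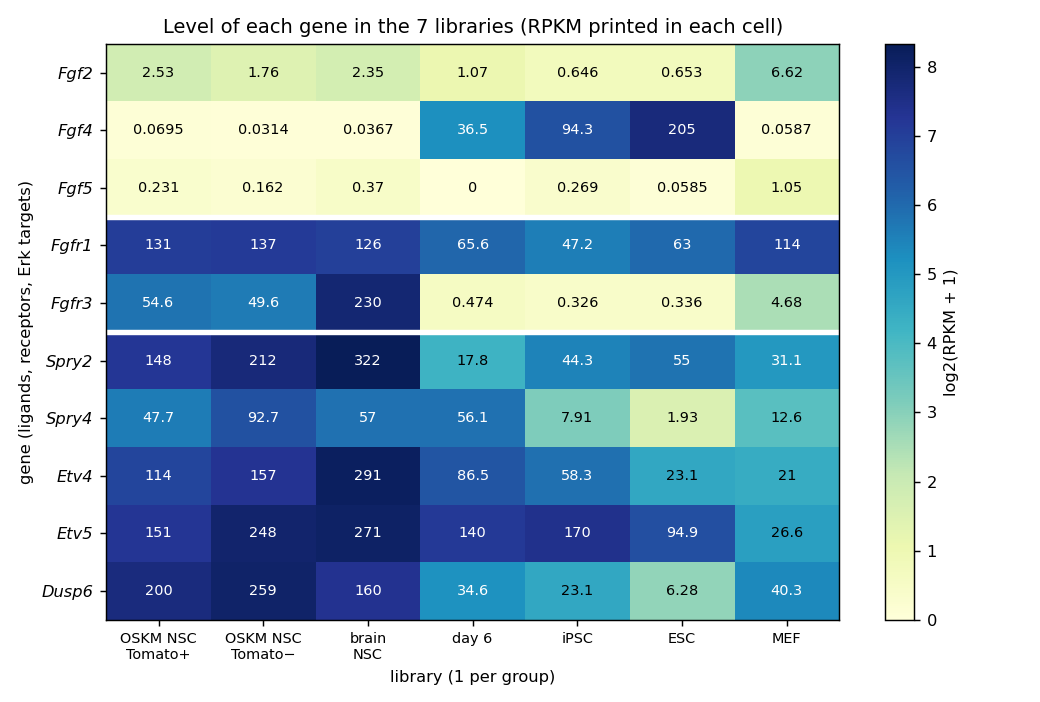
RPKM of the 10 genes (rows, in the order ligands, receptors, Erk-responsive genes) in the 7 libraries (columns), with colour as log2(RPKM + 1). Fgf4 is dark on day 6, in iPSC and in ESC, Fgfr3 in the 3 NSC libraries, and Fgf5 is at or under 1.05 RPKM throughout.

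The genes were then compared between populations as log2((a + 1)/(b + 1)) of the RPKM values, counted at 2-fold or more among genes that reached 2 RPKM in a compared library. Where a side had 2 libraries, each pair had to pass in the same direction, and the smaller ratio is given. Comparisons that share a library are not independent of one another. Fgf2 and Fgfr3 entered those with day 6, iPSC or ESC only through the side on which they are high, so their ratios there had to point one way. The same holds for Fgf4 where day 6, iPSC or ESC were set against MEF or NSC, and for Spry4 in iPSC against ESC. Among day 6, iPSC and ESC themselves, Fgf4 was above the floor on both sides and could point either way. In comparisons without MEF, Fgf2 reached 2 RPKM only with exons shared with another gene. Outside MEF its unshared coding exons averaged 0.407 RPKM or less.

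The first question was which of the genes differed in the converted lines from their starting cell type. In OSKM NSC against MEF, 6 members were higher and 1 lower of 8 tested, beside 17.8% of 16630 genes higher and 15.4% lower. Those higher, with log2 ratios in parentheses here and below, were Fgfr3 (3.15), Etv5 (2.46), Etv4 (2.38), Dusp6 (2.29), Spry2 (2.22) and Spry4 (1.84), and the lower one was Fgf2 (-1.11). The median log2 ratio was 2.25 over the members and 0.08 over all genes. The same 6 genes were higher and Fgf2 was lower in brain NSC against MEF, among 8 tested, beside 21.7% of 16253 genes higher and 22.2% lower. There the ratios were 5.35 for Fgfr3, 3.73 for Etv4, 3.33 for Spry2, 3.30 for Etv5, 2.09 for Spry4, 1.96 for Dusp6 and -1.18 for Fgf2, with a median of 2.70 over the members and 0.14 over all genes.

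Fgfr3 alone passed 2-fold in OSKM NSC against brain NSC, 1 of 8 tested, at -2.06, beside 8.16% of 15739 genes higher and 5.08% lower. Etv4 (-0.88) and Spry2 (-0.60) were under the line, and Dusp6 was at 0.32. With the Tomato-positive library alone 3 members passed, Fgfr3, Spry2 and Etv4, all lower than in brain NSC, beside 3505 genes higher and 1796 lower of 15501 for that pair. Between Tomato-positive and Tomato-negative OSKM NSC 0 of 8 members passed, beside 9.77% of 15323 genes higher and 5.5% lower. All 5 Erk-responsive genes leaned the same way there, with log2 ratios of -0.94 for Spry4, -0.71 for Etv5, -0.51 for Spry2, -0.47 for Etv4 and -0.37 for Dusp6, while the median over all genes was 0.19. Scaling to equal totals moved that median to -0.23 and took Spry4 and Etv5 past 2-fold, and median-of-ratios scaling took Spry4 past it. The lean was not shared by the wider list of 20 other Erk targets and inhibitors, whose median log2 ratio without scaling was -0.04. Of 18 tested there, 0 were higher and 2 lower, beside the same shares of all genes. The summed fibroblast markers were 1972 RPKM in Tomato-positive and 151 RPKM in Tomato-negative OSKM NSC, and their part in these ratios was not tested.

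On the way from fibroblast to NSC, day 6 shared some members with each side. In day 6 against MEF 4 members were higher, Fgf4 (5.15), Etv5 (2.35), Spry4 (2.07) and Etv4 (1.99), and 2 were lower, Fgfr3 (-1.95) and Fgf2 (-1.88), of 9 tested, beside 22.4% of 16154 genes higher and 31.2% lower. The members' shares, 4 and 2 of 9, are thus close to those of all genes on the lower side. In OSKM NSC against day 6, Fgfr3 (5.10), Spry2 (2.99) and Dusp6 (2.50) were higher and Fgf4 (-5.13) was lower, of 9 tested, beside 24.4% of 16319 genes higher and 11.2% lower. Etv4 (0.39) and Etv5 (0.11) stayed under the line, and for Spry4 the 2 OSKM NSC libraries lay on either side of day 6. Spry4, Etv4 and Etv5 were thus higher on day 6 than in MEF, and Spry2, Dusp6 and Fgfr3 were higher in OSKM NSC than on day 6. Against iPSC and ESC, day 6 was higher in Spry4 (2.68) and lower in Fgf4 (-1.35) and Spry2 (-1.27), 3 of 7 tested, beside 9.2% of 16503 genes higher and 19.1% lower. With ESC alone 5 passed, as Etv4 and Dusp6 were also higher on day 6, beside 2006 genes higher and 4942 lower of 16071 for that pair.

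Brain NSC against iPSC and ESC gave 6 members higher and 1 lower of 9 tested, beside 19% of 17095 genes higher and 21.8% lower. The ratios were 7.44 for Fgfr3, 2.74 for Dusp6, 2.70 for Spry4, 2.53 for Spry2, 2.30 for Etv4 and 1.02 for Fgf2, and -6.52 for Fgf4, and Etv5 did not pass at 0.67. In iPSC and ESC against MEF, Fgf4 (6.49) and Etv5 (1.797) were higher and Fgf2 (-2.20) and Fgfr3 (-2.09) lower, of 9 tested, beside 20.5% of 17239 genes higher and 18.9% lower. The members' shares, 2 and 2 of 9, were near those of all genes.

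Differences of 2-fold or more stood even between the pluripotent libraries. Against ESC, iPSC were higher in Dusp6 (1.73), Spry4 (1.60) and Etv4 (1.30) and lower in Fgf4 (-1.11), 4 of 7 tested, beside 7.74% of 15749 genes higher and 14.5% lower. Etv5 was at 0.83, and Spry2 at -0.31. The Dusp6 ratio was 3.67 (3.39 to 3.98) and the Etv4 ratio 2.53 (2.33 to 2.55). The Fgf4 direction turned without its last exon, to a log2 ratio of 0.52. The 2 libraries differ in strain, and the feeder note of the iPSC is uncertain. The fibroblast markers summed to 113 RPKM in iPSC and 4004 RPKM in ESC, and their part in these ratios was not tested.

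**Figure D4:**
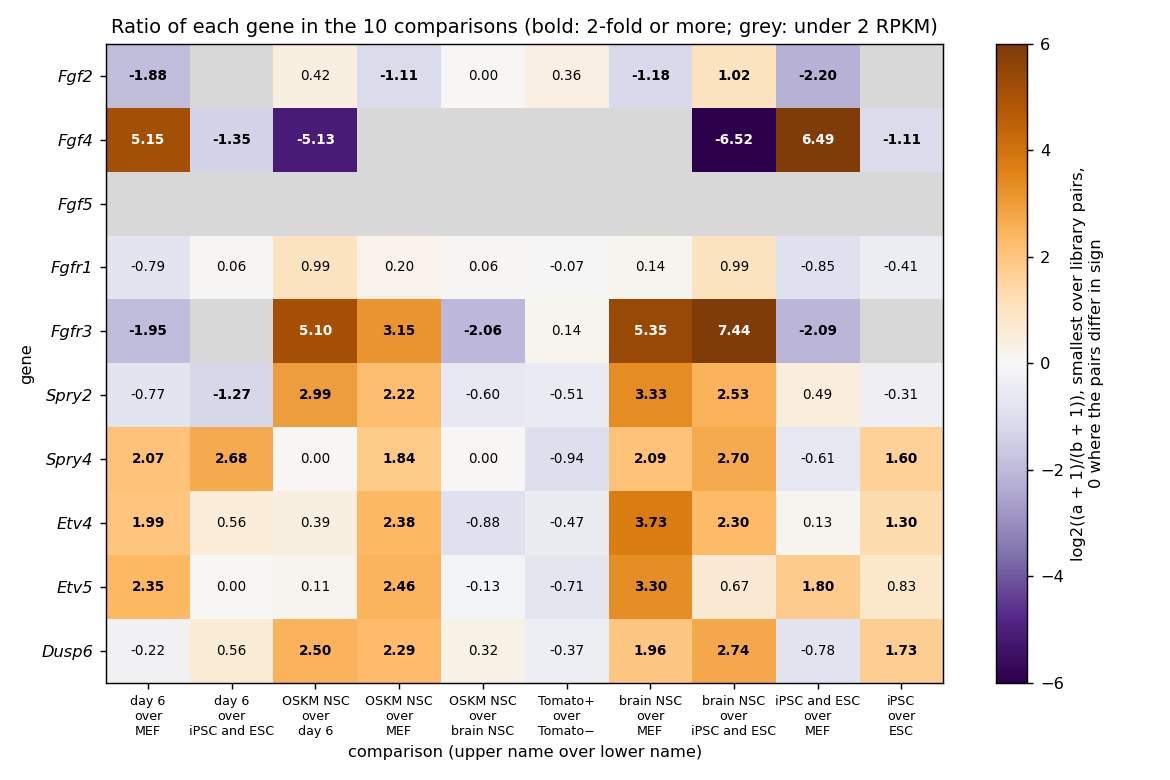
Log2((a + 1)/(b + 1)) of the RPKM values of the 10 genes (rows) in the 10 comparisons (columns), with the smaller ratio over library pairs and 0 where pairs differ in sign, bold at 2-fold or more and grey where neither side reached 2 RPKM. Fgfr3 runs from -2.09 (iPSC and ESC against MEF) to 7.44 (brain NSC against iPSC and ESC), and Fgfr1 has no bold cell.

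Levels of single exons were not always alike within a gene. From the first to the last, the 3 exons of Fgf4 stood at 8.27, 29.3 and 41.9 RPKM on day 6, 23.5, 187 and 103 RPKM in iPSC, and 3.87, 182 and 242 RPKM in ESC. The lower Fgf4 level in iPSC than in ESC thus rested on the last exon, and without it the log2 ratio of iPSC over ESC was 0.52 in place of -1.11. In the pluripotent libraries the last exon of Etv5 stood above the rest of the gene. It averaged 209 RPKM in iPSC and 113 in ESC, against 85.9 and 59.3 RPKM over its other coding exons. In the NSC libraries the last exon was below the other coding exons, at 152 and 177 RPKM in Tomato-positive OSKM NSC, 249 and 294 in Tomato-negative OSKM NSC, and 272 and 321 in brain NSC. Without the last exon Etv5 passed 2-fold in brain NSC against iPSC and ESC, at 1.89, and in day 6 against iPSC and ESC, at 1.08.

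Etv4 on day 6 was high near its 5′ end. The exons at chr11:101783967-101784014 and chr11:101777093-101777146 (mm10) stood at 599 and 560.0 RPKM on day 6, and the last exon at 42.4. In brain NSC the same 3 exons stood at 695, 650 and 258 RPKM, and in MEF at 37.04, 44.4 and 18.5 RPKM. With the exons split at the middle, the log2 ratio of the 5′ to the 3′ side of Etv4 was 2.17 on day 6, and between 0.20 and 0.73 in the other 6 libraries. The day 6 library was uneven in general, as 14.7% of 4768 genes had such a ratio at least 1 log2 unit from the median of the other libraries, and 0.440% to 3.86% did so in each other library. A shift as large as that of Etv4 was found in 95 genes, or 1.99%, on day 6. With the last exon alone, OSKM NSC were 1.05 log2 units above day 6 in Etv4, past 2-fold, in place of 0.39. The first exon of Etv5, in its shorter annotated form, also stood higher on day 6, at 213 RPKM, than in the NSC libraries, at 29.2, 33.1 and 40.5 RPKM, and it was at 1.65 RPKM in MEF. The part of the uneven library in these exon levels was not tested.

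**Figure D5:**
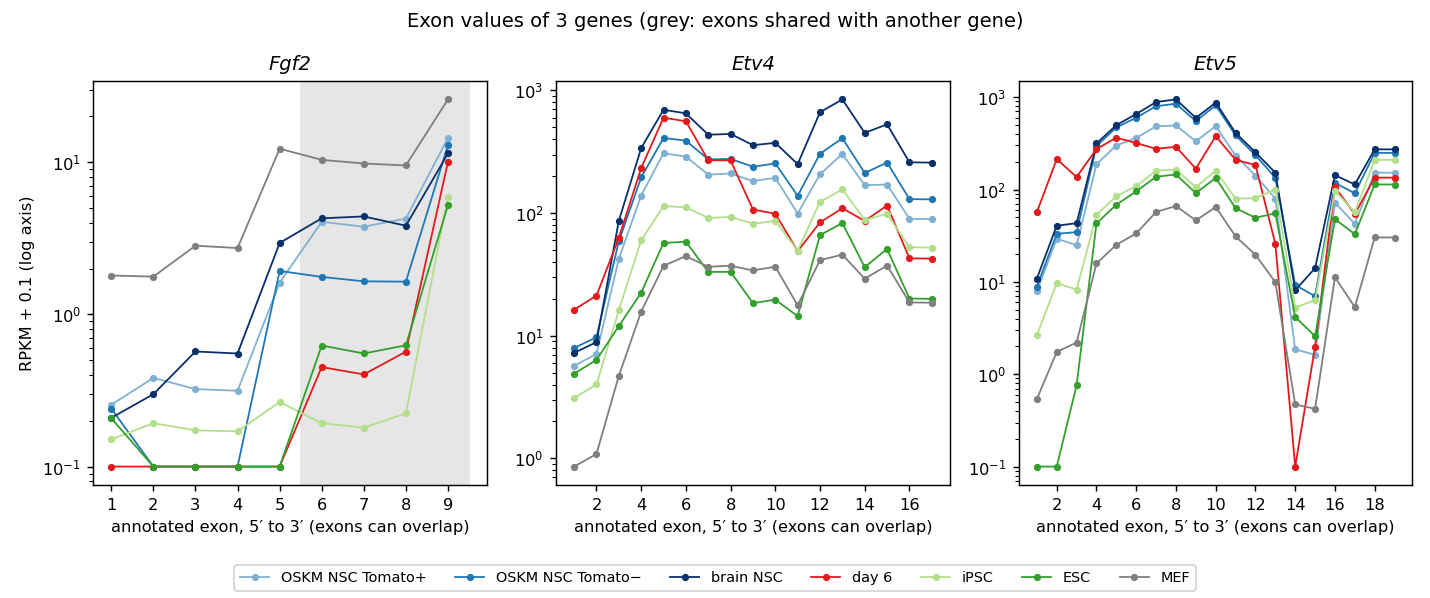
RPKM + 0.1 on a log axis for each annotated exon of Fgf2, Etv4 and Etv5, from 5′ to 3′, with 1 line per library and grey for exons shared with another gene. The last exon of Fgf2 is at 25.8 RPKM in MEF and at 14.4 RPKM or less elsewhere, the day 6 line of Etv4 peaks at 599 RPKM and ends at 42.4 RPKM in the last exon, and at the first exons of Etv5 the day 6 line lies above those of the other 6 libraries.

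The rest of the pathway was read from lists of textbook members. Of 19 other Fgf ligands, 14 reached 2 RPKM in a library. The highest were Fgf1, at 18.6, 19.0 and 88.3 RPKM in Tomato-positive, Tomato-negative and brain NSC and at or under 0.972 RPKM elsewhere, and Fgf11, at 3.61, 17.1 and 144 RPKM in the same libraries and 11.8 in MEF. Fgf11, Fgf12, Fgf13 and Fgf14 are relatives that stay inside the cell and do not act through Fgf receptors. Fgf12 and Fgf14 were above 2 RPKM in all 3 NSC libraries and had 0 RPKM on day 6. Against brain NSC, both OSKM NSC libraries were lower in Fgf1 and Fgf11 and in no other ligand of 8 tested, beside 5.08% of all genes, with log2 ratios of -2.16 and -3.00.

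Fgf18, known from bone and cartilage, stood at 3.28, 1.13 and 1.41 RPKM in the NSC libraries, 26.7 on day 6, 2.28 in iPSC, 0.695 in ESC and 28.3 in MEF. Fgf7, the keratinocyte growth factor made by mesenchyme, stood at 17.4 RPKM in ESC and 24.8 in MEF, and at or under 1.32 RPKM in the other 5 libraries, iPSC included at 0.146. Fgf10, another mesenchymal ligand, was likewise at 4.51 RPKM in ESC, 3.81 in MEF and under 0.5 in the rest. The fibroblast markers summed to 4004 RPKM in ESC, and their part in these ligand levels was not tested. Fgf8, Fgf16 and Fgf22 were above 2 RPKM on day 6 alone, at 2.26, 3.89 and 3.24 RPKM.

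Of 13 other receptors and co-receptors, 9 were lower and none was higher on day 6 than in MEF, of 10 tested, beside 31.2% of all genes lower and 22.4% higher. Fgfr2 stood at 11.9, 16.7 and 12.8 RPKM in the NSC libraries, 2.88 on day 6, 3.004 in iPSC, 2.90 in ESC and 38.1 in MEF. Most of its day 6 level came from 2 exons shared with another gene, at 72.5 RPKM, and its unshared coding exons averaged 12.55, 18.1 and 14.4 RPKM in the NSC libraries, 0.374 on day 6, 1.00 in iPSC, 1.87 in ESC and 44.9 in MEF. Fgfrl1, a receptor without a kinase, stood at 82.6, 48.4 and 71.5 RPKM in the NSC libraries, 2.13 on day 6, 3.33 in iPSC, 8.01 in ESC and 38.5 in MEF. Fgfr4 reached 4.44 RPKM in iPSC and 4.40 in ESC and stayed at or under 1.08 elsewhere. The heparan sulphate carriers Gpc1 and Sdc3 were likewise at 4.30 and 4.27 RPKM on day 6, against 62.8 and 95.2 RPKM in MEF. Of the kinase receptors, Fgfr1 thus had the highest level per exon length on day 6, 65.6 RPKM, and Fgfr3 had 0.474 RPKM.

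The Ras-Erk cascade was even by comparison. Of 20 genes from the adaptors Frs2 and Grb2 down to the Erk kinases, 19 were tested. In OSKM NSC 1 was higher and none lower than in MEF, beside 17.8% and 15.4% of all genes, and 0 of 19 passed against brain NSC, beside 8.16% and 5.08%. On day 6, 4 were lower than in MEF, beside 31.2% of all genes, the adaptor genes Shc1 and Gab1, the Raf kinase gene Araf and the scaffold gene Ksr1. Map2k1, which encodes Mek1, stood between 130 and 175 RPKM in the 7 libraries.

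Of 20 other Erk targets and inhibitors, 18 were tested in OSKM NSC against MEF, and 7 were higher and 3 lower, beside 17.8% of all genes higher and 15.4% lower. Higher were Spred1, Spred2 and Spred3, inhibitors of Ras signalling, Dusp4, Etv1, Myc and Ccnd1. Lower were Dusp1, Dusp5 and Ier3. Myc is also an OSKM factor, and the transgene and the endogenous gene are not separated in its level. It stood at 90.5, 68.5 and 42.3 RPKM in Tomato-positive, Tomato-negative and brain NSC, 179 on day 6 and 21.1 in MEF. The part of the transgene was not tested. Etv1, the third PEA3 factor, stood at 34.4, 52.2 and 42.3 RPKM in Tomato-positive, Tomato-negative and brain NSC, 4.51 on day 6, 5.65 in iPSC, 1.92 in ESC and 3.88 in MEF. It was thus not higher on day 6, where Etv4 and Etv5 were. Spry1 stood at 80.9, 95.8 and 69.6 RPKM in the NSC libraries, 8.40 on day 6, 4.88 in iPSC, 6.90 in ESC and 44.5 in MEF. It was thus lower on day 6 than in MEF and all NSC libraries, as Spry2 was and Spry4 was not. Unlike Spry2, it was not lower on day 6 than in iPSC and ESC.

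In brain NSC against iPSC and ESC, 13 of these targets were higher and 2 lower of 18 tested, beside 19% of all genes higher and 21.8% lower, with a median log2 ratio of 1.82 beside 0 over all genes. The 2 lower were Dusp1 and Dusp9. Dusp9, an Erk phosphatase, stood at 2.80, 0.962 and 0.0408 RPKM in the NSC libraries, 2.75 on day 6, 59.0 in iPSC, 34.3 in ESC and 3.32 in MEF, and was highest in iPSC and ESC, where Dusp6 was lowest. Day 6 against iPSC and ESC gave 10 higher and 2 lower of 18, beside 9.2% of all genes higher and 19.1% lower. The 10 higher include Myc, again with the transgene not separated. In iPSC and ESC against MEF 1 was higher and 9 were lower of 18, beside 20.5% higher and 18.9% lower. The immediate early gene Egr1 was at 0.725 RPKM in iPSC, 0.551 RPKM in ESC and 70.5 RPKM in MEF.

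Across the 7 libraries some members ran in parallel. Pearson's r of log2(RPKM + 1), over 7 libraries that differ in depth and strain and include 3 NSC libraries, was 0.90 for Fgfr3 and Spry2, 0.89 for Spry4 and Dusp6, 0.88 for Fgfr3 and Dusp6, and 0.85 for Etv4 and Etv5. It was -0.95 for Fgf4 and Fgfr1 and -0.87 for Fgf4 and Dusp6. With 7 libraries in few kinds these values describe which libraries were high together. Among 11838 genes that reached 10 RPKM somewhere, those with the pattern most like Fgf4 were Ano9 (r 0.9996), Slc28a1, Ildr1, Gtsf1l and Tdgf1. Tdgf1, a Nodal co-receptor, stood at 51.05 RPKM on day 6, 343 in iPSC and 309 in ESC. For Dusp6 they were Casd1 (0.988), Mthfd2l, Zhx1, Flywch1 and Sufu, and Casd1 ranged from 6.70 RPKM in ESC to 29.3 RPKM in Tomato-negative OSKM NSC. For Fgf5 they were Tnnc2 (0.972), Coro1a, Trappc6a, Plod2 and Yipf3, all highest in MEF, at levels of Fgf5 that were near 1 RPKM or below.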

How the data were processed

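RNA-seq of 7 mouse libraries, 1 per group, was used, and the kit (TruSeq RNA v2, per the labels' protocols) does not mark strand. The authors deposited RPKM values, 1 per exon and library. The submitters' processing notes name TopHat2 2.0.10, bedtools, CASAVA 1.8.2 and Bowtie with the mm10 build, and which tool counted the reads is not given in the sources used here. Of 279252 exons, 270168 (96.7%) were matched by exon ID to GENCODE M21 (GRCm38), and 9084 were left out. The matched exons gave 29686 genes by exon-length-weighted means. Of them, 14816 exons shared a base with an exon of another gene and were kept.

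Depth was inferred as the whole number of M reads at which RPKM times exon length gave whole reads. A value under 5000 reads counted as whole within 0.01 read and a relative 1e-05, which held for 96.3% to 96.5% of values. Depth was 19 M reads in Tomato-positive OSKM NSC, 42 in Tomato-negative OSKM NSC and 27 in brain NSC, and it was 46 on day 6, 58 in iPSC, 41 in ESC and 45 in MEF. No count test was run on RPKM. Recovered reads over exons with no base in common gave 95% exact (Clopper-Pearson) intervals of ratios, which cover counting error only and are printed only where they contain the RPKM ratio. No exon of Spry4 gave whole reads. A value of 0 allows up to 3 reads.

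Comparisons used log2((a + 1)/(b + 1)) with the 1 RPKM pseudocount, which understates the ratio of low genes, a floor of 2 RPKM in a compared library, and a 2-fold line. No p-value is given, since each group has 1 library. Python 3.11.15, pandas 2.3.3, numpy 2.4.6 and scipy 1.17.1 were used, and the steps were tested on simulated data. The members and lists were chosen with earlier results of these data known. The naming rule covered the 10 members, Nudt6, exons IIIb and IIIc, and the 5 genes most like Fgf4, Fgf5 and Dusp6. It also covered Fgf ligands, receptors and co-receptors that reach 2 RPKM, and genes of the other lists at 10 RPKM or 4-fold. Not every list gene that met the rule is described here, and Gpc3, Fgf9 and Phlda1 are among those left out. Pou5f1, Sox2 and Pkm were added after their values were seen. Alternatives were other scalings, pseudocounts of 0.25 and 4 RPKM, no floor or 8 RPKM, and other choices of exons, of which leaving out or keeping only the last exon were added after the data were seen. Some genes of the Ras-Erk cascade are not reported here.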

Additional observations from a re-analysis of the deposited data

How the results depend on the processing

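Of 122 recomputed counts of members past 2-fold, 114 stayed within 1.5 times the main count. For Tomato-positive against Tomato-negative OSKM NSC the count was 2 with equal totals (Spry4 and Etv5) and 1 with median-of-ratios scaling (Spry4), in place of 0. In OSKM NSC against brain NSC it was 2 with median-of-ratios scaling and with the highest exon of each gene (Fgfr3 and Etv4), and 3 with the Tomato-positive library alone, in place of 1. It was 2 in place of 4 in iPSC and ESC against MEF with a floor of 8 RPKM, which fewer members reach, and 2 in place of 4 in iPSC against ESC with the highest exon. In day 6 against iPSC and ESC it was 5 with ESC alone, in place of 3. Except where stated, the cause was not tested. The log2 ratio of Fgf4 in iPSC against ESC turned to 0.52 without the last exon, in place of -1.11, and was -0.37 with the highest exon. Of 462 recomputed log2 ratios of counted members, 446 stayed past 2-fold in the same direction, 15 fell under the line and 1, the Fgf4 ratio above, reversed. Of the 15, 8 were of Fgf2, such as -0.70 in OSKM NSC against MEF with a pseudocount of 4 RPKM. A floor does not enter the ratio, so among the 462 the 43 without a floor and the 35 at 8 RPKM could not move. The 43 with a pseudocount of 0.25 RPKM could not fall, because a smaller pseudocount only enlarges a ratio. Of 417 ratios under 2-fold 20 passed it under an alternative. Among these 417, the 39 without a floor and the 36 with a floor of 8 RPKM could not move either. Scaling moved the median of all genes by up to -0.42 (Tomato-positive against Tomato-negative OSKM NSC, equal totals). No paired analysis was possible because each group has 1 library. At these depths levels under 0.2 RPKM rest on few reads.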

Other observations

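Other growth factor receptors that feed the Erk route also differed between the libraries. Egfr, the receptor of the EGF in the brain NSC medium, stood at 24.0 RPKM in Tomato-positive OSKM NSC, 100.4 in Tomato-negative OSKM NSC and 170.4 in brain NSC, and at 16.6 on day 6, 1.24 in iPSC, 6.28 in ESC and 42.0 in MEF. Egfr was thus more than 2-fold lower in Tomato-positive than in Tomato-negative OSKM NSC. Erbb4, a neuregulin receptor, stood at 2.26, 7.27 and 38.1 RPKM in Tomato-positive, Tomato-negative and brain NSC, and at or under 0.901 RPKM elsewhere. Of 11 Egf receptors and ligands, 4 were higher and 1 lower of 7 tested in brain NSC against iPSC and ESC, beside 19% of all genes higher and 21.8% lower. In brain NSC against MEF 3 were higher and 4 lower of 8 tested, beside 21.7% and 22.2%.

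The Pdgf receptors ran the other way. Pdgfra stood at 26.7, 12.48 and 5.36 RPKM in the NSC libraries, 0.249 on day 6, 1.18 in iPSC, 28.3 in ESC and 80.8 in MEF. Pdgfrb stood at 22.5, 1.34 and 0.0383 RPKM in the NSC libraries, 0.385 on day 6, 4.35 in iPSC, 11.7 in ESC and 150.1 in MEF. Of 5 Pdgf genes, 3 were higher and none lower in Tomato-positive than in Tomato-negative OSKM NSC, beside 9.77% of all genes higher and 5.5% lower. In OSKM NSC 3 of 5 were lower than in MEF, beside 15.4% of all genes. Pdgfrb is also 1 of the 10 fibroblast markers, whose sum was 1972 RPKM in Tomato-positive and 151 RPKM in Tomato-negative OSKM NSC. Its part in these differences was not tested. Pdgfb, a ligand, stood at 24.7 RPKM on day 6 and at or under 5.94 RPKM in the other 6 libraries.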
